A study of Mus musculus with 72 samples.

Results

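Hepatokines are proteins that hepatocytes secrete into the blood and that act on metabolism in other tissues or in the liver itself. The 8 transcripts described here encode FGF21, the angiopoietin-like proteins ANGPTL4, ANGPTL6 and ANGPTL8, the inhibin beta E chain (Inhbe), the chemotactic factor LECT2, and the plasma proteins fetuin-B (Fetub) and fetuin-A (Ahsg). They were picked by gene symbol from 51912 gene rows. The choice applied no threshold to measured values, but it was made with earlier results of these data known. All 8 were counted, and all 8 passed the filter on low counts that left 12712 genes for testing. Fgf21 passed it only through the feeding groups where it was higher.

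The data were 3′ mRNA sequencing counts from livers of wild-type male C57BL/6J mice, 43 to 49 days old at the start, kept in 12 h of light and 12 h of dark with free water. There were 4 feeding paradigms. Food was restricted to the night, given ad libitum, or given arrhythmically, and another set of mice on the arrhythmic paradigm did not fully adapt to it and is called incompletely adapted here. Livers were taken every 4 h from ZT02 to ZT22 (zeitgeber time, hours after lights on), with 3 libraries per paradigm and time and 72 in all. The sources used here give neither the schedule of food delivery nor the criterion for adaptation. No label states that the 3 libraries of a group came from separate animals, so p-values measure the spread between these libraries, which may be technical. Since the tissue was bulk liver, fewer cells of a type and less RNA per cell cannot be told apart.

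As background, the members fall into several roles. FGF21 is an endocrine growth factor that signals through FGF receptors with the co-receptor beta-Klotho; fasting induces it through PPARα, while ATF4 induces it under amino acid shortage and other stress. ANGPTL4 and ANGPTL8 are inhibitors of lipoprotein lipase with opposite nutritional control, ANGPTL4 being a fasting-induced PPARα target and ANGPTL8 induced by feeding and insulin. Activin E, the dimer of the INHBE chain, restrains lipolysis in adipose tissue. LECT2 is a liver-derived factor that binds receptors such as MET and TIE1, and the fetuins are abundant cystatin-family glycoproteins, fetuin-A inhibiting mineral deposition and insulin receptor signalling.

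The main patterns were as follows. Angptl8 went from low levels in the light to high levels in the dark under night-restricted feeding, and its rhythm differed under arrhythmic feeding, where it was high in most libraries of the light phase. Angptl4 was called rhythmic in night-restricted, ad libitum and arrhythmic feeding, with a peak between ZT 9.8 and ZT 13.1. The fitted course of Inhbe under arrhythmic feeding also differed from the night-restricted one, with a peak shift of -6.17 h (earlier under arrhythmic feeding). The arrhythmic course of Inhbe was not itself called rhythmic, so its peak is uncertain. The Inhbe difference was lost with time coded as 6 levels, without some single libraries, and without all libraries numbered 1, 2 or 3. Fetub was the fourth member called rhythmic under night-restricted feeding, a call lost without the night-restricted libraries numbered 1, and Lect2 lost its difference of rhythm without them.

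Total counts ran from 4342026 to 12286021 per library (median 6992793). Levels are in CPM, a gene's count divided by its library's total and scaled to 1e+06. The libraries differed in composition along the GC content of transcript 3′ ends, measured here as a GC slope, the change in a library's log2 CPM deviations per 10 percentage points of GC. The 3 highest slopes were those of the night-restricted libraries numbered 1 at ZT22 (0.569), ZT06 (0.496) and ZT02 (0.489), and the 2 lowest those of the incompletely adapted libraries numbered 1 at ZT10 (-0.417) and ZT14 (-0.374). Results that rest on such libraries are given with and without them. All 5 hepatocyte markers were high, with a summed level of 21660 to 38270 CPM over all libraries. The 5 adipocyte markers summed to 1.32 to 45.8 CPM per library, mostly Fabp4 (mean 13.4 CPM) and Cfd (4.21 CPM), while Adipoq averaged 0.0774 CPM and Plin1 0.0312 CPM.

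Promoters of the members that the results turn on are shown first, since 3 of them share a short motif. The sequences come from the RefSeq promoter table of GRCm38.p6, which matched 7 of the 8 members (all but Angptl4). Each is the 200 bases before the annotated start, 5′ to 3′ on the gene's strand, with capitals marking any match to the motifs searched. The ATF4-C/EBP composite element, searched as TTGCATCA on both strands in windows from 250 bases before to 50 bases after the start, was present in the windows of Fgf21, Angptl8 and Inhbe, and in 0.895% of 32851 promoters of the same length. The Fgf21 stretch also holds an E-box (CACGTG, in 7.15% of promoters), from position -50 to -45 relative to the start. The stretches of Fgf21 (chr7:45615491-45615690, minus strand), Angptl8 (chr9:21835310-21835509, plus strand) and Lect2 (chr13:56548539-56548738, minus strand) read as follows.
Fgf21: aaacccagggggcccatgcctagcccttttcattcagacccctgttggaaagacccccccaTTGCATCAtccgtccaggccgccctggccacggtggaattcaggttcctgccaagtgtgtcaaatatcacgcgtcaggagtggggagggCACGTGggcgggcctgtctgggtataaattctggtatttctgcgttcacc
Angptl8: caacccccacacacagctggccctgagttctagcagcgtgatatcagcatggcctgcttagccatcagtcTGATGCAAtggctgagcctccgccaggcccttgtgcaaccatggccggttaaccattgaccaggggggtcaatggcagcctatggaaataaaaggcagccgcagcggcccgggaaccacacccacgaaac
Lect2: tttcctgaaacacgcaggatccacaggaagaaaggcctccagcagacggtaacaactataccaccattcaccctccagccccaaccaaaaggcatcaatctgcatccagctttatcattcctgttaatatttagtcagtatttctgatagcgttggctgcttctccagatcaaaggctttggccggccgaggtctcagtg
For Inhbe the bases before the RefSeq start overlap an exon annotated in GENCODE M21, so only the 30 bases around the motif are shown (chr10:127352011-127352040, minus strand).
Inhbe: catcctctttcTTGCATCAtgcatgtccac
In Fgf21 and Inhbe the composite element lies on the gene's strand, from -139 to -132 and from -181 to -174, and in Angptl8 its complement lies from -130 to -123.

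The other motifs were rare or absent in these windows. A FOXO element (GTAAACA, 3.65% of promoters) was found in the second of 2 Fetub windows, from -236 to -230. The D-box (TTATGTAA, 0.938%), the RORE (TAGGTCA, 2.61%), the nuclear receptor half-site that the RORE contains (AGGTCA, 16.3%), the CRE (TGACGTCA, 1.79%), the HNF4A element (CAAAGTCCA, 0.475%) and the SREBP element (TCACNCCAC, 1.24%) were not in the member windows. These are matches of letters within 300 bases, not sites shown to be bound.

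**Figure D1:**
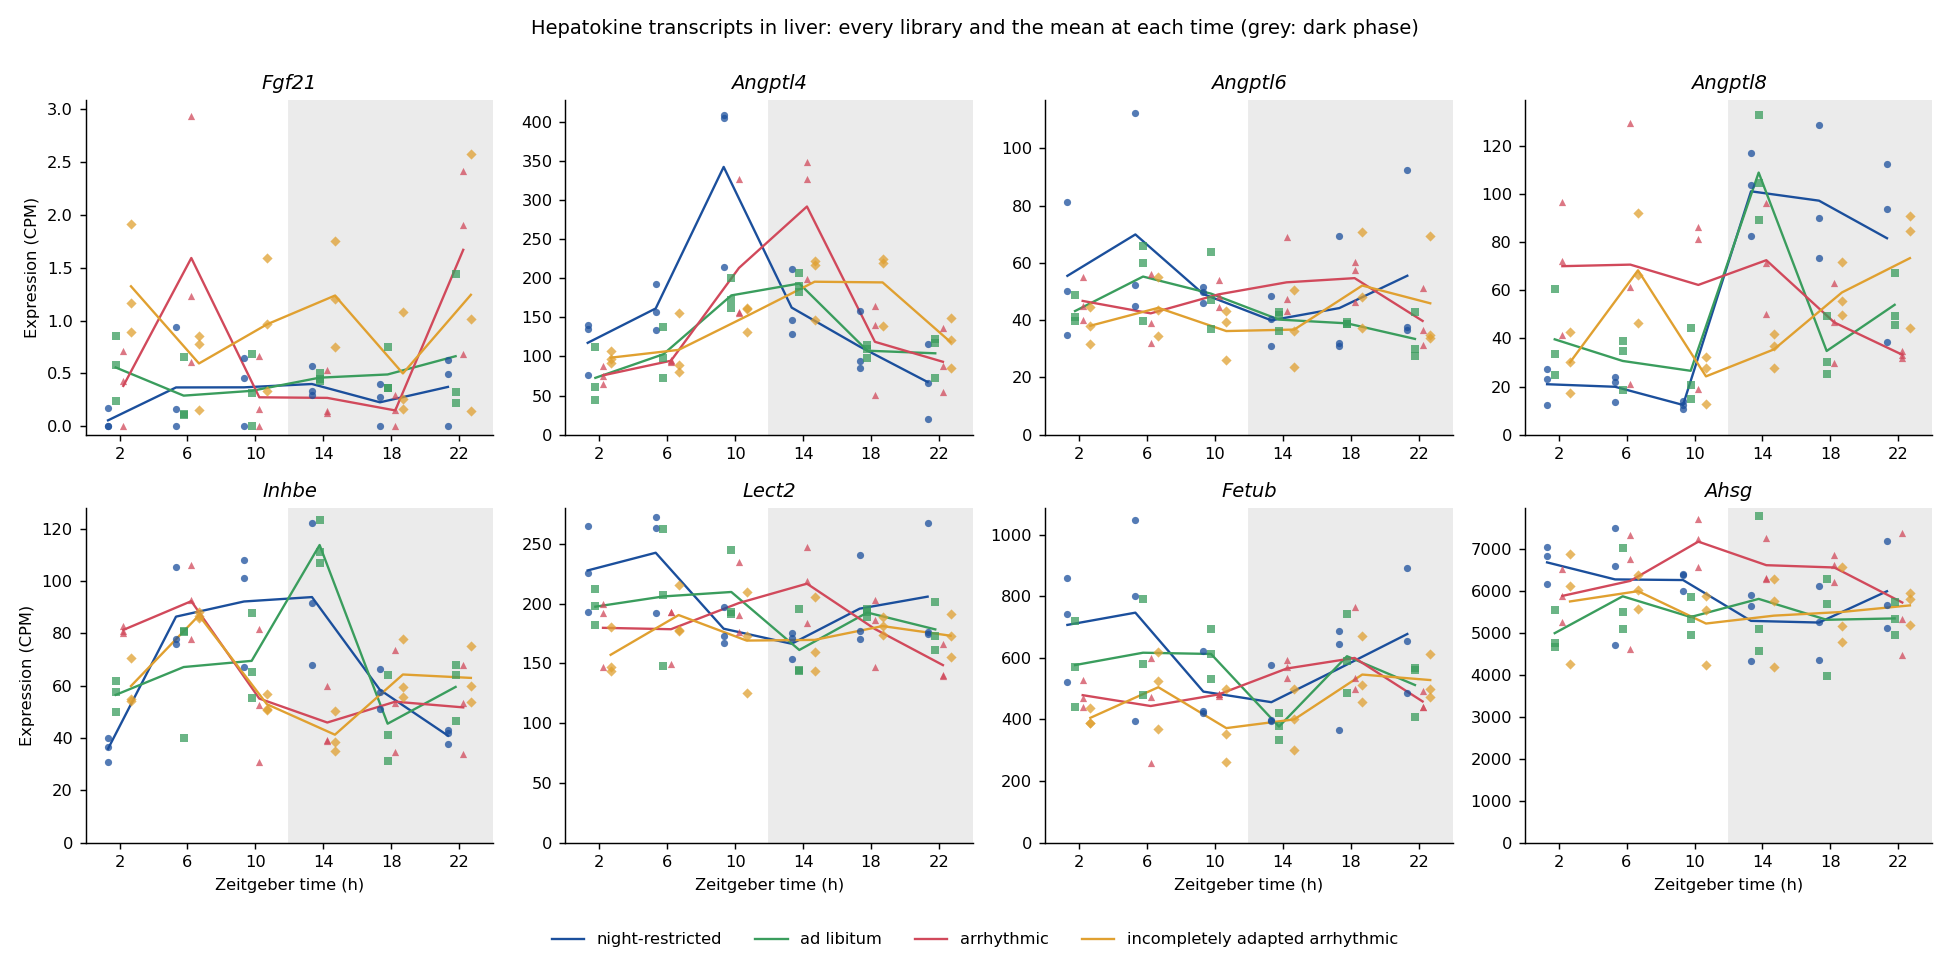
Expression of each transcript (CPM, linear axis) against zeitgeber time in hours, with 1 point per library, slightly offset by paradigm, and lines through the means of 3 libraries; grey marks the dark phase. Angptl8 under night-restricted feeding lies between 10.8 and 27.3 CPM in the light and between 38.6 and 129 CPM in the dark.

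Angptl8 (ENSMUSG00000047822.8, GRCm38 chromosome 9, 21835510 to 21837347, plus strand) encodes the feeding-induced lipoprotein lipase inhibitor of the group. Under night-restricted feeding its libraries held 27.3, 12.6 and 23.1 CPM at ZT02, 24.1, 13.6 and 22.1 CPM at ZT06, and 10.8, 13.9 and 12.4 CPM at ZT10. They held 82.7, 117 and 104 CPM at ZT14, 129, 73.3 and 90.0 CPM at ZT18, and 113, 38.6 and 93.8 CPM at ZT22. All 9 light-phase libraries were thus below all 9 dark-phase libraries, with the step between ZT10 and ZT14. A cosine of 24 h was fitted to each paradigm, and a gene was called at a Benjamini-Hochberg adjusted p under 0.05 over all genes tested. The fitted peak-to-trough range was 3.11 ± 0.51 on the log2 scale (SE), an 8.64-fold change peaking at ZT 18.3 ± 0.621 h, with an adjusted p of 3.3e-05 by edgeR's quasi-likelihood test. Angptl8 was 1 of 4 members called rhythmic under night-restricted feeding, against 29.9% of all genes tested there.

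Under arrhythmic feeding the same transcript was spread over the day. The libraries held 96.6, 72.1 and 41.4 CPM at ZT02, 20.9, 130 and 61.6 CPM at ZT06, 81.2, 86.4 and 19.2 CPM at ZT10, 50.1, 71.4 and 96.1 CPM at ZT14, 63.2, 47.0 and 29.8 CPM at ZT18, and 31.8, 33.3 and 34.7 CPM at ZT22. In the light phase 7 of 9 libraries lay above the highest night-restricted light-phase library, and libraries of 1 time differed by as much as 20.9 against 130 CPM. The range was 0.94 ± 0.50 with a peak at ZT 9.4, not called rhythmic (adjusted p = 0.622), and the difference of rhythm from night-restricted feeding was called (range difference -2.17, adjusted p = 0.0048). Over all genes, 3.81% differed in that comparison, and 3 of the 8 members did. The paradigm means were close, 59.2 ± 30.5 CPM under arrhythmic and 55.6 ± 43.3 CPM under night-restricted feeding (SD, n = 18), with a log2 difference of 0.38 ± 0.25 (adjusted p = 0.351).

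At single times, Angptl8 was the member that passed the test between arrhythmic and night-restricted feeding, at ZT10. The means there were 62.3 ± 37.4 CPM under arrhythmic and 12.4 ± 1.53 CPM under night-restricted feeding (SD, n = 3). The log2 difference was 2.40 ± 0.51 (SE, 5.28-fold, adjusted p = 0.042), where 0.11% of genes were called. That call was lost when any of 5 of the 6 libraries was left out. The adjusted p was then 0.119 without the arrhythmic library numbered 1, 0.355 without number 2, and 0.236, 0.239 and 0.169 without the night-restricted libraries numbered 1, 2 and 3. Differences at the other times were 1.53 at ZT02 (adjusted p = 0.299), 1.64 at ZT06 (0.101), -1.11 at ZT18 (0.999) and -1.53 at ZT22 (0.211). The sign thus changed from the light to the dark phase, though these 4 values did not pass.

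The 3 libraries at ZT14 under ad libitum feeding held 105, 133 and 89.4 CPM of Angptl8, above the other 15 libraries of that paradigm, which held 14.7 to 67.4 CPM. The cosine did not call this course (range 1.20 ± 0.50 at ZT 16.5, adjusted p = 0.252), while a test with time coded as 6 levels did (adjusted p = 0.0361). Under incompletely adapted feeding the libraries ran from 12.9 to 92.1 CPM (range 0.96 ± 0.50 at ZT 22.7, adjusted p = 0.642). The rhythm difference of incompletely adapted from night-restricted feeding was not called (adjusted p = 0.0641). Angptl8 lies within the gene body of Dock6, on the opposite strand and with no shared exon, and the strand setting of the counting is not given, so intronic Dock6 reads cannot be told apart from it.

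**Figure D2:**
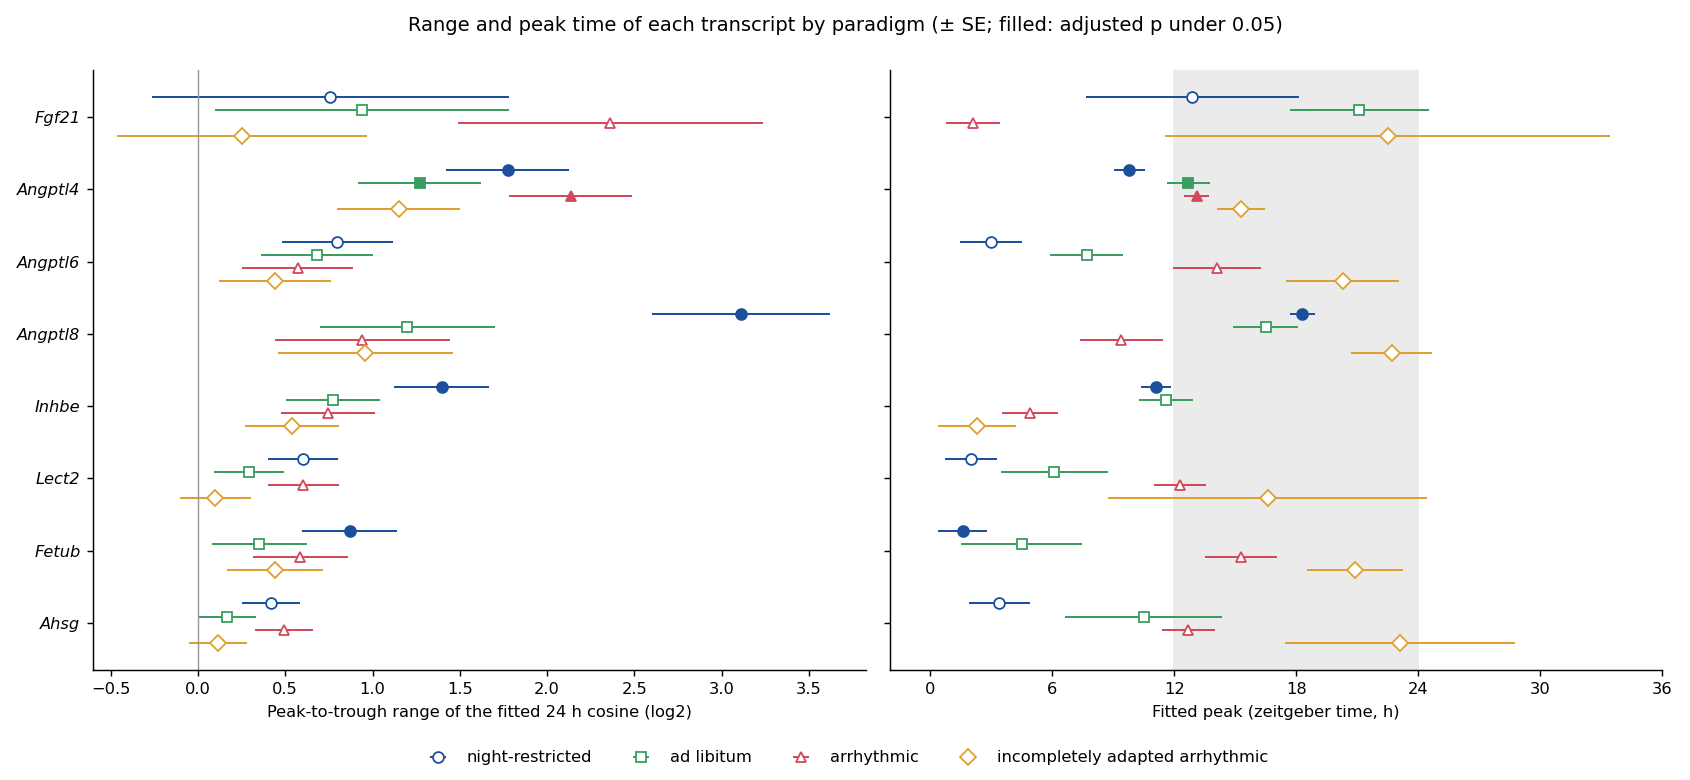
Fitted log2 peak-to-trough range (left) and peak time in hours (right) of each transcript by paradigm, with SE bars; filled symbols mark an adjusted p under 0.05 for the 24 h cosine and grey the dark phase. The range of Angptl8 is 3.11 under night-restricted feeding and 0.94 to 1.20 in the other paradigms, and Angptl4 is filled in 3 paradigms. The rhythm of Angptl8 under night-restricted feeding differed by edgeR from the arrhythmic one (adjusted p = 0.0048). It was not called different from the ad libitum (0.515) or incompletely adapted one (0.0641).

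Angptl4 (ENSMUSG00000002289.15, GRCm38 chromosome 17, 33773750 to 33781830, minus strand) encodes the fasting-induced lipoprotein lipase inhibitor. Under night-restricted feeding it was highest at ZT10, with 408, 405 and 214 CPM, and lowest at ZT22, with 116, 66.5 and 19.8 CPM. Under arrhythmic feeding it was highest at ZT14, with 200, 327 and 349 CPM, and lowest at ZT02, with 88.3, 64.6 and 74.8 CPM. In both paradigms the highest group lay above the lowest with no overlap. The ad libitum libraries held 183, 207 and 190 CPM at ZT14 and 44.2, 113 and 61.4 CPM at ZT02.

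Angptl4 was called rhythmic under night-restricted (range 1.77 ± 0.35, peak ZT 9.8 ± 0.759 h, adjusted p = 0.000338), ad libitum (1.27 ± 0.35, ZT 12.7 ± 1.06 h, adjusted p = 0.0367) and arrhythmic feeding (2.13 ± 0.35, ZT 13.1 ± 0.631 h, adjusted p = 5.5e-05). It was the 1 member called under ad libitum feeding, where 7.48% of genes were called, and the 1 member called under arrhythmic feeding, where 3.37% were. Under incompletely adapted feeding the range was 1.15 ± 0.35 at ZT 15.3 (adjusted p = 0.123), with 0 members called by edgeR against 3.63% of genes, and 1 member, Angptl4, at an unadjusted p of 0.00699. The ad libitum call was lost without each of 8 single libraries. These were numbers 1 and 3 at ZT02 (adjusted p = 0.102 and 0.0742), 1 and 2 at ZT10 (0.0665 and 0.0509), 1, 2 and 3 at ZT14 (0.0544, 0.0808 and 0.0638) and 1 at ZT22 (0.0695). It was also lost when time was coded as 6 levels (0.248). The calls under night-restricted and arrhythmic feeding held without any single library.

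The fitted peak of Angptl4 was 3.32 h later under arrhythmic than under night-restricted feeding, and the difference of rhythm was not called (adjusted p = 0.0858). It was called without night-restricted ZT18 replicate 1 (0.0305) and without arrhythmic ZT18 replicate 3 (0.0381). At ZT06 the 3 arrhythmic libraries (96.0, 93.4 and 94.4 CPM) lay below the 3 night-restricted ones (193, 134 and 157 CPM), with a log2 difference of -0.96 ± 0.44 (adjusted p = 0.209). Mean levels over the day were 161 ± 102 CPM under night-restricted, 148 ± 95.1 under arrhythmic, 145 ± 49.8 under incompletely adapted and 126 ± 49.6 under ad libitum feeding (SD, n = 18). No pair of neighbours in this order differed beyond the spread.

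Angptl6 (ENSMUSG00000038742.7, GRCm38 chromosome 9, 20873808 to 20879727, minus strand), the third angiopoietin-like member, is linked to energy expenditure. Its means were 52.4 ± 22.6 CPM under night-restricted, 47.6 ± 9.98 under arrhythmic, 43.4 ± 10.4 under ad libitum and 42.2 ± 12.9 under incompletely adapted feeding (SD, n = 18). The 4 highest night-restricted values were all from libraries numbered 1, with 112 CPM at ZT06, 92.4 at ZT22, 81.2 at ZT02 and 69.5 at ZT18, against 30.99 to 52.4 CPM in the 12 libraries numbered 2 and 3. Angptl6 passed no test in the edgeR fit of all libraries without a block, and its ranges ran from 0.44 ± 0.32 under incompletely adapted to 0.80 ± 0.32 under night-restricted feeding. The night-restricted course was called without night-restricted ZT18 replicate 1 (adjusted p = 0.0270) and without ZT02 replicate 3 (0.0464). Without the former its difference of rhythm from arrhythmic feeding was also called (0.0379). It shares exon sequence with the opposite-strand gene A230050P20Rik, whose reads cannot be separated without the strand setting.

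Inhbe (ENSMUSG00000047492.5, GRCm38 chromosome 10, 127348857 to 127354411, minus strand) was low around the light onset under night-restricted feeding, with 30.9, 40.1 and 36.7 CPM at ZT02 and 43.0, 42.0 and 37.7 CPM at ZT22. It was high from ZT06 to ZT14, with 77.7, 105 and 76.1 CPM at ZT06, 67.3, 108 and 101 CPM at ZT10, and 91.7, 122 and 68.0 CPM at ZT14. Under arrhythmic feeding ZT02 was instead among the high times, with 80.8, 80.3 and 82.9 CPM, and ZT14 was low, with 38.8, 39.1 and 59.9 CPM. At both of these times the arrhythmic and night-restricted libraries did not overlap, in opposite directions. The log2 differences were 0.99 ± 0.29 at ZT02 (adjusted p = 0.232) and -0.91 ± 0.29 at ZT14 (adjusted p = 0.429), neither called.

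The cosine of Inhbe had a range of 1.40 ± 0.27 at ZT 11.1 ± 0.739 h under night-restricted feeding (adjusted p = 0.000438) and of 0.74 ± 0.27 at ZT 4.9 ± 1.39 h under arrhythmic feeding (adjusted p = 0.245). The difference of rhythm was called (adjusted p = 0.0277). It was lost without arrhythmic ZT14 replicate 2 (adjusted p = 0.0501), night-restricted ZT02 replicate 1 (0.0606) or night-restricted ZT14 replicate 2 (0.0625), and when time was coded as 6 levels (0.0748). It was also lost without all libraries numbered 1, 2 or 3 (0.1165, 0.2064 and 0.1135). It held without the 6 night-restricted libraries numbered 1 (0.0486) and when the GC slope was added as a covariate (0.00431).

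Under ad libitum feeding Inhbe peaked at ZT14, with 111, 123 and 107 CPM against 31.1 to 87.9 CPM in the other 15 libraries. The cosine gave 0.77 ± 0.27 at ZT 11.6 (adjusted p = 0.125), and the factor of 6 levels an adjusted p of 0.0318. Under incompletely adapted feeding Inhbe was highest at ZT06, with 86.7, 85.8 and 88.1 CPM, and lowest at ZT14, with 35.1, 38.6 and 50.2 CPM. Its range there was 0.54 ± 0.27 at ZT 2.3 (adjusted p = 0.601), and its rhythm differed from night-restricted feeding (adjusted p = 0.0365). It was the 1 member so called, against 0.614% of all genes. That call held without 19 of 36 single libraries of the pair, and the highest adjusted p was 0.0816, without night-restricted ZT14 replicate 2. It held in 7 of 13 other settings, being lost with an added 12 h cosine (0.0535), with no filter on low counts (0.0612), without the 5 libraries of extreme GC slope (0.105), and without all libraries numbered 1, 2 or 3 (0.113, 0.422 and 0.263). This comparison shares its night-restricted libraries with the previous one. Mean levels lay between 61.4 ± 15.8 CPM under incompletely adapted and 68.6 ± 25.6 CPM under ad libitum feeding.

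**Figure D3:**
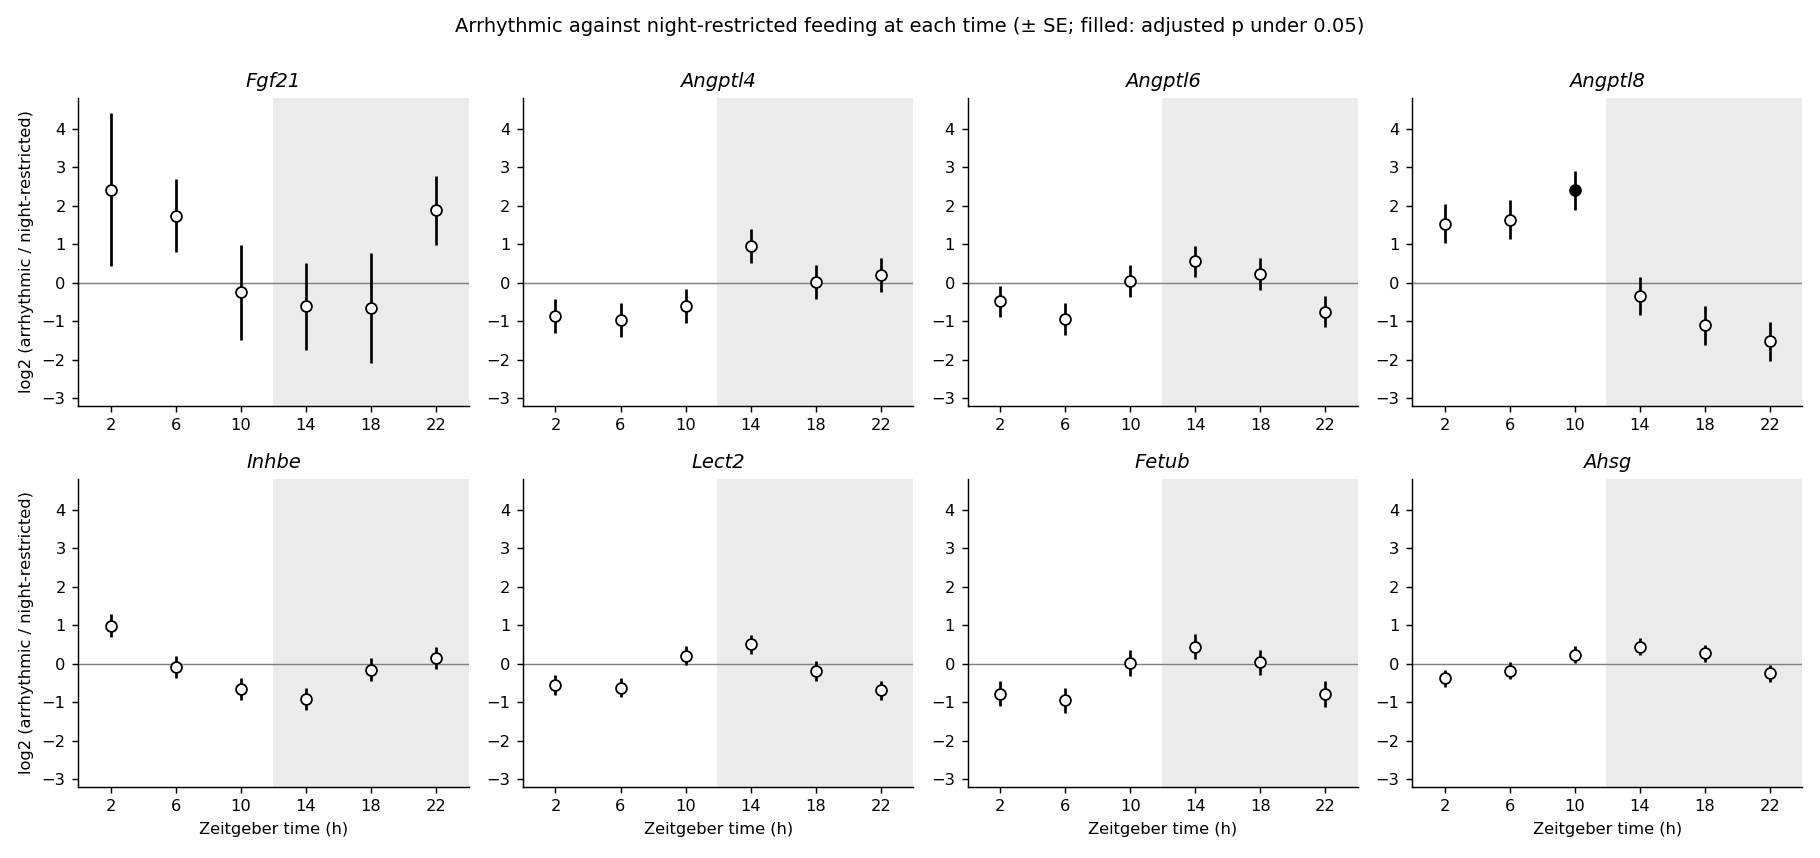
Log2 difference between arrhythmic and night-restricted feeding at each time in hours (± SE), 3 libraries against 3, with grey for the dark phase. Only Angptl8 at ZT10, 2.40, is filled for an adjusted p under 0.05. Lect2, Fetub, Angptl6 and Ahsg are all below 0 at ZT02, ZT06 and ZT22, with no value called. At these times the night-restricted libraries numbered 1 had the 3 highest GC slopes.

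Lect2 (ENSMUSG00000021539.8, GRCm38 chromosome 13, 56542464 to 56548502, minus strand) varied less. Night-restricted libraries held 265, 193 and 226 CPM at ZT02, 263, 192 and 273 CPM at ZT06, and 175, 171 and 153 CPM at ZT14. Arrhythmic libraries held 147, 200 and 192 CPM at ZT02, 149, 193 and 193 CPM at ZT06, and 248, 184 and 219 CPM at ZT14. The groups overlapped at ZT02 and ZT06 and did not overlap at ZT14, where the difference was not called (adjusted p = 0.919). At ZT22 they also did not overlap, with 149 ± 15.1 CPM under arrhythmic and 206 ± 53.3 CPM under night-restricted feeding (SD, n = 3). The log2 difference there was -0.69 ± 0.25 (adjusted p = 0.227, not called). The ranges were equal, 0.60 ± 0.20 in each, with peaks at ZT 2.0 ± 1.29 h and ZT 12.3 ± 1.28 h, and the difference of rhythm was called (adjusted p = 0.0277). By edgeR neither course was called on its own (adjusted p = 0.0553 and 0.191). The night-restricted course was close to the threshold and was called by DESeq2 (adjusted p = 0.0367), and the arrhythmic one was called when the GC slope was added (0.0344).

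The Lect2 difference was lost under several alternatives. These were coding time as 6 levels (adjusted p = 0.222), adding a 12 h cosine (0.108) and leaving out all libraries numbered 1 or 2 (0.146 without the latter). It was also lost without night-restricted ZT02 replicate 1 (adjusted p = 0.0786), without the 6 night-restricted libraries numbered 1 (0.118), without the 5 libraries of extreme GC slope (0.206) and when the GC slope was added as a covariate (0.0625). Its mean was 203 ± 40.9 CPM when food was restricted to the night, 191 ± 31.2 when it was ad libitum, 184 ± 31.6 in the arrhythmic and 174 ± 24.4 in the incompletely adapted paradigm (SD, n = 18).

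Fetub (ENSMUSG00000022871.12, GRCm38 chromosome 16, 22918334 to 22939778, plus strand) was the fourth member called rhythmic under night-restricted feeding, with a range of 0.87 ± 0.27 at ZT 1.6 ± 1.20 h (adjusted p = 0.0394). Its 3 libraries at ZT06 held 1046, 395 and 799 CPM, a spread wider than the fitted 1.83-fold range over the day. The libraries numbered 1 averaged 711 CPM over the day, those numbered 2 averaged 431 CPM and those numbered 3 averaged 680 CPM. Without the 6 libraries numbered 1 the range was 0.41 (adjusted p = 0.579), and when the GC slope was added 0.39 (0.263). The call was also lost without night-restricted libraries 1 at ZT02 (0.121), ZT06 (0.0511), ZT10 (0.0599), ZT14 (0.0679) and ZT22 (0.0703), and 2 at ZT10 (0.0533), ZT14 (0.0887) and ZT18 (0.0595). Its difference of rhythm from arrhythmic feeding was just outside the threshold (adjusted p = 0.0508) and was called in 13 of 36 fits that left out a single library.

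Ahsg (ENSMUSG00000022868.5, GRCm38 chromosome 16, 22891277 to 22899449, plus strand) is the neighbour and paralog of Fetub. Its means were 6375 ± 943 CPM under arrhythmic, 5966 ± 937 under night-restricted, 5597 ± 807 under incompletely adapted and 5460 ± 901 under ad libitum feeding (SD, n = 18). At ZT14 the arrhythmic libraries (7280, 6308 and 6283 CPM) lay above the night-restricted ones (5904, 4332 and 5647 CPM), with a log2 difference of 0.45 ± 0.22 (adjusted p = 0.919). The groups also did not overlap at ZT10 and ZT18, again with arrhythmic feeding higher, and neither time was called (adjusted p = 0.9998 and 0.9994). The share of all genes without overlap is not reported here, so lack of overlap, here and for the other members, is a description only. The ranges ran from 0.11 ± 0.17 to 0.49 ± 0.17, none called by edgeR without a block, and the rhythm difference of arrhythmic from night-restricted feeding had an adjusted p of 0.0543, under 0.05 in 11 of 36 fits that left out a single library. An antisense gene, Gm30505, shares exon sequence with Ahsg.

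Fgf21 (ENSMUSG00000030827.5, GRCm38 chromosome 7, 45613886 to 45615490, minus strand) was close to the detection limit. Its counts ran from 0 to 20 per library with 10 of 72 libraries at 0, where a count of 0 allows up to 0.691 CPM in the shallowest and 0.244 CPM in the deepest library (3 counts, counting error only). The 18 night-restricted libraries held 40 counts in all with 6 at 0, the ad libitum libraries 68 with 1 at 0, the arrhythmic libraries 86 with 3 at 0, and the incompletely adapted libraries 123 with 0 at 0. The levels were 0.299 ± 0.283, 0.466 ± 0.337, 0.723 ± 0.863 and 0.978 ± 0.668 CPM in that order (SD, n = 18). The distributions overlapped, the night-restricted libraries reaching 0.940 CPM and the incompletely adapted ones starting at 0.142 CPM. No night-restricted library was high enough to count towards the filter on low counts, which Fgf21 passed through libraries of other paradigms.

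Fgf21 under arrhythmic feeding was highest at ZT06, with 2.94, 1.23 and 0.610 CPM, and at ZT22, with 0.687, 1.90 and 2.42 CPM. In the other 12 arrhythmic libraries it was at most 0.715 CPM. The fitted range was 2.36 ± 0.87 at ZT 2.1 and was not called (adjusted p = 0.306). At ZT22 the arrhythmic libraries lay above the night-restricted ones (0, 0.491 and 0.626 CPM) with no overlap, at a log2 difference of 1.88 ± 0.91 (adjusted p = 0.310). The lowest arrhythmic and the highest night-restricted library there held 5 counts each. The arrhythmic libraries of 1.90 and 2.42 CPM were among those through which Fgf21 passed the filter on low counts. This contrast is thus not independent of that filter. Depth limits what can be said of the daily course of this transcript.

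For mean levels, 0 of 8 members differed between arrhythmic and night-restricted feeding by edgeR, where 6.92% of genes did. At an unadjusted p under 0.05 there were 2 of 8 members, beside 3077 of 12712 genes. These were Fetub (log2 difference -0.34 ± 0.14, adjusted p = 0.115) and Lect2 (-0.22 ± 0.10, adjusted p = 0.163). The 95% intervals of the log2 difference ran from -0.119 to 0.87 for Angptl8, from -0.552 to 0.139 for Angptl4 and from -0.375 to 0.154 for Inhbe. Between arrhythmic and ad libitum feeding 0 members differed in level (2.1% of genes), with Ahsg at an unadjusted p of 0.0133. Between night-restricted and ad libitum feeding 0 differed (1.62% of genes), with Angptl6 and Ahsg at unadjusted p of 0.0284 and 0.0286. Between incompletely adapted and arrhythmic feeding 0 differed (0% of genes), with Ahsg at an unadjusted p of 0.0149.

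With incompletely adapted in place of arrhythmic feeding, 3 members differed in level from night-restricted feeding, where 18% of all genes did. Fgf21 was higher (1.52 ± 0.45, adjusted p = 0.00972), and Fetub (-0.49 ± 0.14, adjusted p = 0.0109) and Lect2 (-0.33 ± 0.10, adjusted p = 0.0213) were lower. Fgf21 passed the filter on low counts only through paradigms other than night-restricted feeding, so its test is not independent of that filter. With no filter on low counts its difference was 1.52 (adjusted p = 0.0168). Without the night-restricted libraries numbered 1 the values were 1.34 for Fgf21 (adjusted p = 0.104), -0.29 for Fetub (0.302) and -0.14 for Lect2 (0.510). With the GC slope as a covariate they were 0.70 (0.267), -0.22 (0.212) and -0.09 (0.537), so none of the 3 calls was kept in either setting. Lect2 was also not called without night-restricted ZT22 replicate 1 (adjusted p = 0.0567). Against ad libitum feeding 0 members differed in level (0.134% of genes).

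Beyond those between night-restricted feeding and either arrhythmic paradigm, 0 differences of rhythm were called among the members. The shares over all genes were 0.0236% for arrhythmic against ad libitum feeding, 0% for night-restricted against ad libitum feeding, 0% for incompletely adapted against arrhythmic feeding and 0% for incompletely adapted against ad libitum feeding. At an unadjusted p under 0.05, 1, 1, 3 and 2 members were found in these comparisons, beside 1150, 1109, 310 and 1160 of the 12712 genes. Inhbe was the 1 in arrhythmic against ad libitum feeding (unadjusted p = 0.00991) and Angptl8 the 1 in night-restricted against ad libitum feeding (0.0276). At single times other than ZT10, 0 members were called between arrhythmic and night-restricted feeding, against 0% of genes at ZT02, 0.378% at ZT06, 0.0865% at ZT14, 0% at ZT18 and 0.00787% at ZT22. At an unadjusted p under 0.05 these times held 4, 5, 3, 1 and 4 members, beside 1350, 2766, 661, 594 and 1778 of the 12712 genes.

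**Figure D4:**
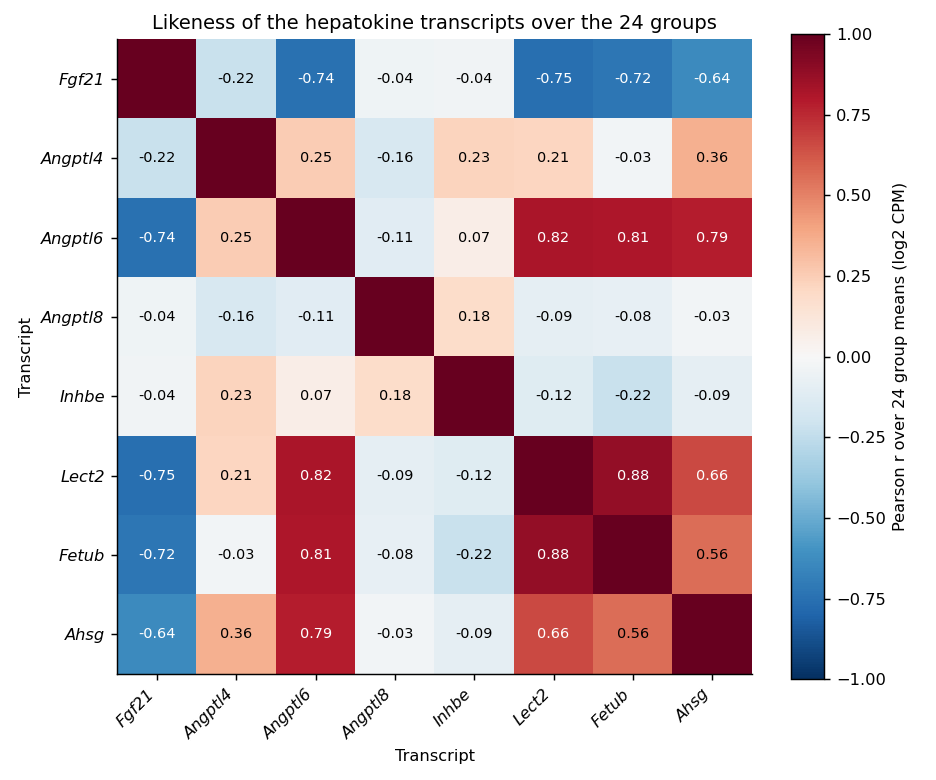
Pearson correlation of log2 CPM between each pair of transcripts over the 24 group means, written in each cell. Lect2, Fetub, Angptl6 and Ahsg form a block with values from 0.56 to 0.88, and Fgf21 is negative against each of them.

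Over the 24 group means, Lect2 correlated with Fetub at 0.88, Angptl6 with Lect2 at 0.82 and with Fetub at 0.81, and Fgf21 with Lect2 at -0.75. Angptl4, Angptl8 and Inhbe were each weakly related to the rest, between -0.22 and 0.36. These values share libraries, depth and GC slope and are a description. Among tested genes averaging 5 CPM or more, the course most like that of Fetub was Kng1 at 0.98, that of Angptl4 was Ell2 at 0.89 followed by Camk2b and Foxo1, and that of Angptl8 was Klhl25 at 0.83. For Inhbe it was Wdr43 at 0.72, for Lect2 Gpr89 at 0.95, for Ahsg Proc at 0.91, for Angptl6 Mrpl58 at 0.96, and for Fgf21 Zfand5 at 0.84.

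Genes around FGF21 signalling were expressed without a called difference of rhythm between arrhythmic and night-restricted feeding. Of 16 tested receptors and regulators, 8 were rhythmic when food was restricted to the night, 4 when it was ad libitum, 2 in the arrhythmic and 2 in the incompletely adapted paradigm. Their rhythm difference was called for 0. The shares over all genes were 29.9%, 7.48%, 3.37% and 3.63%, and 3.81% for the rhythm difference. In a list of 16 genes, 0 called is near that last share and is not a result about the list. The median range was 0.94 under night-restricted and 0.43 under arrhythmic feeding, against 0.70 and 0.43 over all genes tested. Klb, the beta-Klotho co-receptor, had a mean of 7.49 CPM and a range of 0.62 ± 0.21 under night-restricted feeding (adjusted p = 0.0682). Ppara, the fasting receptor, had a range of 1.26 ± 0.40 at ZT 8.6 (adjusted p = 0.0304) and, under arrhythmic feeding, of 0.78 ± 0.39 (adjusted p = 0.539). Mlxipl, the carbohydrate sensor ChREBP, was lower under arrhythmic feeding (-0.39, adjusted p = 0.0490).

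Of 22 PPARα and fasting targets, the list related to Angptl4, 10 were rhythmic when food was restricted to the night (29.9% of all genes). The numbers were 4 when it was ad libitum (7.48%), 3 in the arrhythmic (3.37%) and 4 in the incompletely adapted paradigm (3.63%). The rhythm of 1 differed between arrhythmic and night-restricted feeding (3.81%). That gene was Cpt1a, which controls fatty acid entry into mitochondria. Its range was 1.59 ± 0.15 under night-restricted feeding, peaking at ZT 10.3, and 0.64 ± 0.15 under arrhythmic feeding, peaking at ZT 11.4 (adjusted p of the difference 0.00878). The night-restricted peaks of Angptl4 and Cpt1a were thus within 1 h of each other, ZT 9.8 and ZT 10.3. The median range of the list was 0.76 under night-restricted and 0.44 under arrhythmic feeding.

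In the lipoprotein lipase axis, 17 genes were tested, of which 4 had a called night-restricted, 1 an ad libitum, 1 an arrhythmic and 0 an incompletely adapted rhythm. The shares over all genes were 29.9%, 7.48%, 3.37% and 3.63%. The median ranges were 0.64 under night-restricted and 0.50 under arrhythmic feeding. The difference of rhythm between these was called for 1 gene (3.81% of all genes), whose range was not smaller under arrhythmic feeding. The 1 gene called rhythmic under ad libitum feeding was Gpihbp1, which holds the lipase on the capillary wall (adjusted p = 0.0348). Of 5 other angiopoietin-like and angiopoietin genes tested, a list with median ranges of 0.95 and 0.53, Angptl2 was rhythmic under night-restricted feeding, with 1.20 ± 0.23 at ZT 10.6 (adjusted p = 0.000259), and 0 differed in rhythm.

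Among 18 insulin- and carbohydrate-responsive genes, to which Angptl8 is related, 11 had a called rhythm when food was restricted to the night, 5 when it was ad libitum, 2 in the arrhythmic and 2 in the incompletely adapted paradigm. The shares of rhythmic genes over all genes were 29.9%, 7.48%, 3.37% and 3.63%. The arrhythmic rhythm of 6 differed from the night-restricted one (3.81% of all genes), 5 of them having the smaller range under arrhythmic feeding. The median ranges were 1.68 and 0.84. Pnpla3, a lipid droplet enzyme, fell in range from 4.49 ± 0.92 (peak ZT 19.0) to 1.91 ± 0.75 (peak ZT 8.6) (adjusted p = 0.00241). The night-restricted peaks of Angptl8 and Pnpla3 were at ZT 18.3 and ZT 19.0.

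In the activin and inhibin axis, Inhbc, the liver-expressed paralog of Inhbe, was the 1 of 12 tested genes whose rhythm differed between arrhythmic and night-restricted feeding. Under night-restricted feeding its range was 1.17 ± 0.26 with a peak at ZT 21.3, against 0.40 ± 0.26 under arrhythmic feeding (adjusted p = 0.0230). The night-restricted peak of Inhbc was in the late dark phase, whereas that of Inhbe was at ZT 11.1. Of the 12 genes, 3 were rhythmic when food was restricted to the night, 2 when it was ad libitum, 0 in the arrhythmic and 1 in the incompletely adapted paradigm. The shares over all genes were 29.9%, 7.48%, 3.37% and 3.63%, and 3.81% for the rhythm difference. The median ranges of the list were 0.67 and 0.45 under night-restricted and arrhythmic feeding. Fst, the activin antagonist follistatin, averaged 0.531 CPM, below the 0.616 CPM of Fgf21, and was higher under arrhythmic feeding (1.57, adjusted p = 0.0272). At that level Fst can pass the filter on low counts only through its higher libraries. Its call may thus not be independent of that filter. Of 11 ATF4 target and stress genes, 8 were rhythmic when food was restricted to the night (29.9% of all genes) and 4 when it was ad libitum (7.48%). The numbers were 1 in the arrhythmic (3.37%) and 1 in the incompletely adapted paradigm (3.63%). The median ranges were 1.54 under night-restricted and 0.73 under arrhythmic feeding, against 0.70 and 0.43 over all genes tested. The rhythm of 2 differed (3.81% of all genes), Atf5 (2.72 ± 0.30 against 0.73 ± 0.30, adjusted p = 0.00937) and Trib3 (3.62 ± 0.36 against 1.42 ± 0.37, 0.0161). Atf4, which is also in the list of FGF21 regulators, peaked at ZT 23.3 under night-restricted feeding and was lower in level under arrhythmic feeding (-0.36, adjusted p = 0.0174).

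Beside the next 2 lists, 29.9% of all genes were rhythmic under night-restricted feeding and 3.81% differed in rhythm from arrhythmic feeding. Of 3 LECT2 receptor genes tested, Met was rhythmic under night-restricted feeding (0.69 ± 0.21 at ZT 8.1, adjusted p = 0.0261) and 0 differed in rhythm. Of 5 cystatin-family plasma proteins other than the fetuins, 3 were rhythmic under night-restricted feeding and 2 differed from arrhythmic feeding. These were the kininogens Kng2 (1.08 ± 0.22 at ZT 2.8 against 0.33 ± 0.22, adjusted p = 0.0162) and Kng1 (0.84 ± 0.22 at ZT 2.0 against 0.45 ± 0.22, 0.0301). The median ranges under night-restricted and arrhythmic feeding were 0.53 and 0.41 for the receptors and 0.84 and 0.33 for the cystatin family. Among 19 other hepatokine genes tested, 7 were rhythmic when food was restricted to the night, 3 when it was ad libitum, 2 in the arrhythmic and 1 in the incompletely adapted paradigm. The shares over all genes were 29.9%, 7.48%, 3.37% and 3.63%, and 3.81% for the rhythm difference. The arrhythmic rhythm of 3 differed from the night-restricted one, each having a smaller range, and the median ranges were 0.53 and 0.33. They were Igfbp1, which the insulin list also holds, a binding protein for insulin-like growth factors (2.50 ± 0.58 against 1.05 ± 0.57, adjusted p = 0.0313), Tsku, which encodes tsukushi (3.23 ± 0.32 against 1.77 ± 0.31, 0.0320), and Gdf15, a stress-induced cytokine (2.27 ± 0.38 against 0.21 ± 0.38, 0.0342).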

How the data were processed

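The authors deposited gene counts from 3′ mRNA libraries of 72 livers (QuantSeq kit, per the labels' protocols) and a table in CPM, which equals that count table divided by each library's total, on a scale of 1e+06, to within 5.09e-11 and holds genes above 1 CPM in at least 36 libraries. Per the submitters' processing notes, the tools include STAR 2.4.2a, and mm10 and GRCm38.p5 are the builds listed. Counting tool, strand setting and annotation: not given in the sources used here. Rows without a gene symbol held 0.00309% of counts.

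Counts were tested with edgeR 4.0.16 in R 4.3.3. Low counts were filtered over the 24 groups, TMM scaling was applied, and 1 quasi-likelihood fit over all 72 libraries gave each paradigm a mean, a cosine and a sine of 24 h. Rhythm was tested as cosine and sine together, a rhythm difference as both between paradigms, and single times in a fit with 24 group means. P-values were adjusted by Benjamini-Hochberg over 12712 genes with a threshold of 0.05. Standard errors of ranges and peaks came from the delta method. The prior count for log2 CPM was 2.

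The script was tested on simulated counts before use. The members and gene lists were chosen with earlier results of these data known. All 8 members are named, with list genes by their rank in the rhythm difference of arrhythmic against night-restricted feeding and by known role, and the 3 genes most like each member by Pearson correlation over 24 group means with a mean of at least 5 CPM. Replicate numbers were not taken to pair libraries across paradigms, since 6 of 18 such pairs correlated above 0.1 between arrhythmic and night-restricted feeding and 9 of 18 between each of these and ad libitum feeding, and 4 of 18 between incompletely adapted and arrhythmic feeding. Alternatives were DESeq2 1.42.0, other filters and time models, a GC slope covariate, replicate blocks and libraries left out. Results for some genes are not reported here.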

Additional observations from a re-analysis of the deposited data

Results flagged for a closer look

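The tests of a difference between paradigms in the daily course passed for 3 members between arrhythmic and night-restricted feeding, by edgeR's quasi-likelihood test. The adjusted p was 0.0048 for Angptl8, 0.0277 for Inhbe and 0.0277 for Lect2. Between incompletely adapted and night-restricted feeding the course of Inhbe differed at an adjusted p of 0.0365. Both comparisons use the same night-restricted libraries and are not independent of each other.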

How the results depend on the processing

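Of 4816 member values under alternatives, 4605 kept their side of the threshold, 58 lost and 77 gained a call, 76 changed sign without being called in either, and 0 called values reversed. Angptl4, Angptl8 and Inhbe under night-restricted feeding and Angptl4 under arrhythmic feeding were called rhythmic in all 16 settings and without each of 18 single libraries. The rhythm difference of Angptl8 was called in 13 of 16 settings and without each of 36 libraries. It was not called without replicate 1 (adjusted p = 0.071), without replicate 2 (0.190) or with incompletely adapted in place of arrhythmic feeding (0.0641). With 24 h and 12 h cosines together, Inhbe (0.0656) and Lect2 (0.108) lost theirs. Fetub's night-restricted rhythm was lost in 9 of 16 settings and Angptl4's ad libitum rhythm in 6 of 16. Depth limits Fgf21 most, with a median of 3 counts per library. The causes were not tested.

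Numbers of members called moved as follows. The shares over all genes under the processing alternatives are not reported here, so a rise or fall is not a result about the members. The same holds for the libraries left out below. Rhythmic under night-restricted feeding, 4 became 7 with the replicate block within paradigm. Under ad libitum feeding, 1 became 0 with 24 h and 12 h cosines or no filter on low counts, and 2 with time as 6 levels. Under arrhythmic feeding, 1 became 2 with the GC slope covariate, with that and the replicate block, and with the block within paradigm. Under incompletely adapted feeding, 0 became 1 in these 3 settings and with each paradigm fitted alone. Rhythm differences between arrhythmic and night-restricted feeding, 3 with all libraries, became 1 with 24 h and 12 h cosines, with 6 levels, and with incompletely adapted in place of arrhythmic feeding. They became 5 with DESeq2, with genes above 1 CPM in 36 libraries and with the replicate block, and 7 with the block within paradigm. Within a paradigm, libraries of 1 number deviated together, with a median correlation from 0.151 (arrhythmic) to 0.369 (night-restricted). The block within paradigm added night-restricted rhythms of Angptl6 (adjusted p = 0.0289), Lect2 (0.0338) and Ahsg (0.0275), the arrhythmic rhythm of Ahsg (0.0410), and rhythm differences of Angptl4 (0.0210), Angptl6 (0.0165), Fetub (0.0131) and Ahsg (0.00662). The replicate block across paradigms kept Angptl8 (0.00544), Inhbe (0.0278) and Lect2 (0.0318) and added Fetub (0.0432) and Ahsg (0.0468). Mean level between arrhythmic and night-restricted feeding, 0 became 3 with incompletely adapted in place of arrhythmic feeding. Between arrhythmic and ad libitum feeding, 0 became 1 with the GC slope covariate, with it and the block, and with the block within paradigm. At ZT06, 0 became 1 with the GC slope covariate, and at ZT10, 1 became 0 with no filter.

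With 1 library left out at a time, the number of rhythmic members under night-restricted feeding lay between 3 and 6. It lay between 0 and 1 for ad libitum and for incompletely adapted feeding, and stayed at 1 for arrhythmic feeding. Rhythm differences between arrhythmic and night-restricted feeding ranged from 1, without night-restricted ZT02 replicate 1, to 7, without night-restricted ZT18 replicate 1. They were 5 without arrhythmic ZT02 replicate 2, ZT06, ZT10 or ZT18 replicate 3, or night-restricted ZT02 replicate 3, ZT06 replicate 2, or ZT22 replicates 2 or 3. The number of members that differed in level between these paradigms at a single time ranged from 0 to 1 at ZT06 and at ZT10. Without all libraries of 1 number, rhythm differences fell to 0 without replicate 1 or 2, and mean level calls of arrhythmic feeding ranged from 0 to 1 against each of the other 3 paradigms.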
